A study of Drosophila melanogaster with 2 samples.

Results

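The gene gfzf of Drosophila melanogaster was examined at its own locus in a chromatin immunoprecipitation and sequencing (ChIP-seq) experiment on the gfzf protein. The locus was taken as the gene body and 5 kb on each side, chromosome 3R from 7140880 to 7155968 on the dm6 build, a window of 15089 bp. Every deposited peak line that overlapped this window was a member. There were 3 such lines among 5007 in the set that passed the reproducibility filter, called the optimal set here. The relaxed lists, which held 30000 lines each and were the input of that filter, gave 11 lines for both replicates pooled, 14 for replicate 1 and 12 for replicate 2.

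The chromatin came from embryos of both sexes collected over 0 to 24 h from a transgenic line that stably expressed gfzf with green fluorescent protein (GFP) at its C-terminus. An antibody against GFP was used on chromatin sonicated to 200 to 800 bp. The 2 biological replicates formed 1 group, so no conditions could be contrasted, and the labels do not say whether they came from separate collections. The promoter that drives the fusion gene, its place in the genome and the state of the endogenous gfzf gene are not given in the labels. The transgene carries gfzf sequence, so reads from it and from the endogenous locus cannot be told apart wherever the copies are identical. The spans that this covers, and the part of any value below that came from the transgene, were not tested.

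The product of gfzf is a nuclear protein that combines zinc fingers of the FLYWCH type with a domain related to glutathione S-transferases. The gene is known from hybrid incompatibility, where the allele of Drosophila simulans contributes to the death of hybrids with Drosophila melanogaster, and its protein as a cofactor that joins the transcription factor M1BP at promoters with the element called Motif 1. Factors that bind at their own gene are common in transcription networks, and occupancy by itself says nothing about the effect on transcription.

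In coordinates, gfzf (FBgn0250732) spans chr3R:7145880-7150968, minus strand, in the Ensembl release 115 annotation. The transcripts gfzf-RB and gfzf-RE start at 7150968, have 4 exons and code for 1045 codons. The transcript gfzf-RD starts inside the gene at 7147378, has 3 exons and codes for 234 codons. The long transcripts open with a 5′ untranslated region (UTR) of 338 bp within exon 1, which is 803 bp long and is followed by an intron of 533 bp. The whole of gfzf lies inside intron 2 of CG2656, a gene on the opposite strand. The last exon of CG2656 begins 83 bp upstream of the gfzf start and the gene ends 302 bp upstream of it. Sas-4, which encodes a centriole assembly protein, starts 399 bp upstream of gfzf in the opposite direction. MAGE, which encodes a protein tied to the Smc5/6 complex, starts farther upstream, at 7155180 on the minus strand.

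The sequences below are those in which the results lie, all read 5′ to 3′ on the strand of the named gene from the dm6 reference. The first holds the 30 bases around the main gfzf summit in the 5′ UTR, chr3R:7150729-7150758 on the minus strand, with the summit base in capitals. The second holds the bases upstream of the gfzf start, chr3R:7150969-7151195 on the minus strand. Its capitals mark the 82 bases between the gfzf start and the last exon of CG2656, and its lower case letters are coding sequence of CG2656 read on the other strand. The weaker summits of the gfzf interval on dm6 fell in these capitals. The bases upstream of CG2656 are chr3R:7144574-7144723 on the plus strand, with a Motif 7 match in capitals, and those upstream of MAGE are chr3R:7155181-7155330 on the minus strand. These hold the summits of the neighbouring peaks.
gfzf summit: ccaaccaacaaatcCcaggcagccagccac
gfzf upstream: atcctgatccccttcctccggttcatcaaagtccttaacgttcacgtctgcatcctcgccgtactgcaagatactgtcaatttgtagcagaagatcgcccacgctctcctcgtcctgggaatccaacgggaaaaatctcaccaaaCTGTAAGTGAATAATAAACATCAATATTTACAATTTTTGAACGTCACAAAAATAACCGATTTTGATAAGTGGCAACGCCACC
CG2656 upstream: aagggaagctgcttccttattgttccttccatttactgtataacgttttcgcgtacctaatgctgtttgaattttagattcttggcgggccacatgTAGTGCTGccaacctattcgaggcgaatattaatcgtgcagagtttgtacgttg
MAGE upstream: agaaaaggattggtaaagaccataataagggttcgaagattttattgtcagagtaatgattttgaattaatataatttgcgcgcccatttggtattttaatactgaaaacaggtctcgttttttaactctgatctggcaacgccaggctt

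A strong peak covered the start of gfzf in every list, and its summit lay inside the gene, in the 5′ UTR. In the optimal set the interval ran from 7150057 to 7151576, a width of 1520 bp, with its summit at 7150744. That position is 224 bp downstream of the start of the long transcripts and 114 bp short of the start codon. The interval reached 911 bp into the gene, past exon 1 and into intron 1, and 608 bp upstream, over the last exon of CG2656 and the start of Sas-4. In replicate 1 the interval ran from 7150211 to 7151559 with its summit at the same base as in the pool. In replicate 2 it ran from 7150264 to 7151471 with its summit at 7150760, 208 bp downstream of the start. The summits of the replicates were thus 16 bp apart, against a median of 11 bp over 4865 optimal lines linked in both replicates, of which 61.7% had a smaller distance.

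Signal here means the score in the authors' lists, whose scale they do not state, so levels were compared within a list, and between replicates only as a ratio set beside the same ratio at other lines. At the main summit it was 4282 in the pooled and optimal lists, 2448 in replicate 1 and 1852 in replicate 2. By this signal the line ranked 255 in the pool, 306 in replicate 1 and 192 in replicate 2, which put it within the strongest 1.02% of each relaxed list. Among the 4188 optimal summits within 250 bp of a protein-coding start, called promoter summits here, it ranked 251. The gfzf signal was 8.43 times the median of 508 over promoter summits, and 94.0% of them had a lower value. The peak at gfzf was thus strong, but 250 promoter summits were stronger, and its signal alone did not set it apart.

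**Figure D1:**
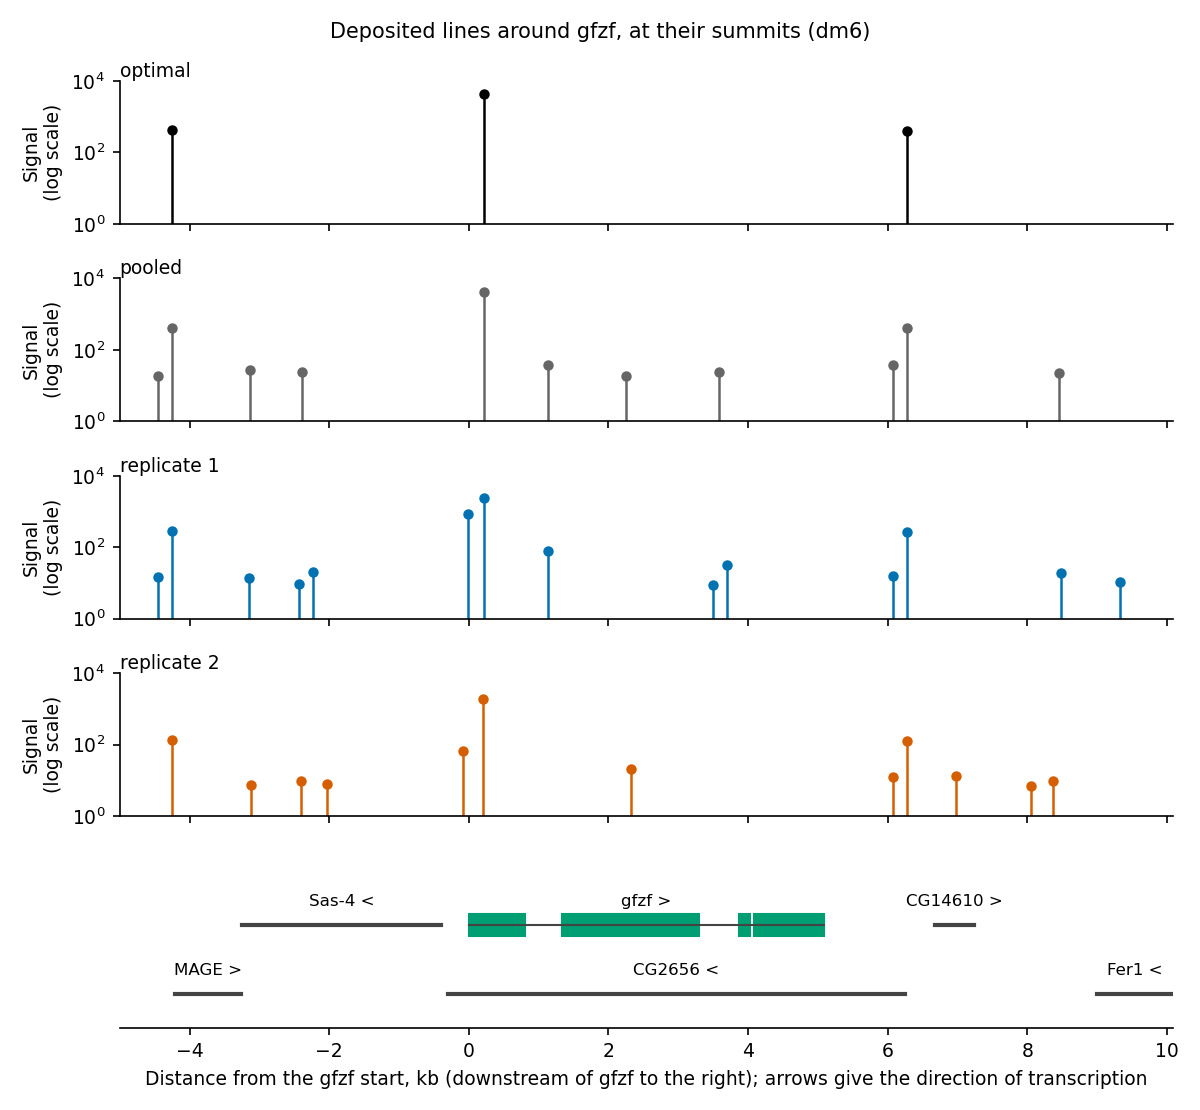
Deposited lines around gfzf in the optimal, pooled and replicate lists on dm6, each drawn at its summit with the authors' signal on a log axis, above the genes of the window (boxes are gfzf exons, and lines the other genes). The horizontal axis is the distance from the gfzf start in kb, positive downstream. The optimal set holds 3 lines, with 4282 over the gfzf start, 398 at CG2656 and 413 at MAGE, and in each list the line with the highest signal is the one over the gfzf start.

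The position of the summit was what set gfzf apart from other promoters. The median offset of promoter summits from the nearest start was −37 bp, with quartiles of −70 and −10 bp, where negative values are upstream. The gfzf summit, at 224 bp downstream, was farther downstream than 99.8% of them, and 8 summits, gfzf included, lay as far or farther. Only summits within 250 bp of a start enter this set, which limits how far downstream a member of it can be. Of the 41 promoter summits (0.979%) that lay 200 bp or more downstream, gfzf had the highest signal, ahead of Dek at 788 and Cbl, which encodes a ubiquitin ligase, at 521. The median of these 41 was 139. The boundary of 200 bp was chosen after the values were seen. Offsets depend on the annotated starts, and start sites of gfzf outside the annotation were not analysed here.

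**Figure D2:**
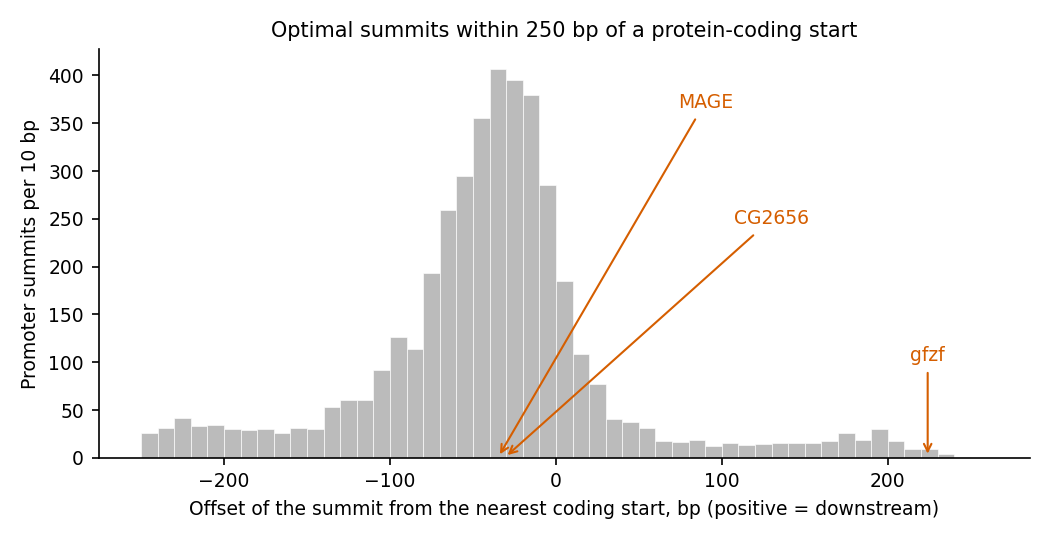
Number of optimal promoter summits per 10 bp of offset from the nearest protein-coding start, with positive values downstream. The summits at CG2656 (−31 bp) and MAGE (−35 bp) lie near the median of −37 bp, and the gfzf summit lies at 224 bp, in the far tail.

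The interval at gfzf was also wide. Its 1520 bp compare with a median of 524 bp over the 4362 distinct optimal intervals, 99.3% of which were narrower. That median equals the common fixed width of the pooled list, which 25289 of its 30000 lines share. There were 31 intervals as wide or wider, and the widest spanned 2241 bp. The 10 promoter peaks next to gfzf in signal had widths from 772 to 1264 bp, so all were narrower than the interval at gfzf.

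A weaker summit next to the gfzf start appeared in some lists and not in others. In replicate 1 on dm6 it lay at 7150977, 9 bp upstream of the start, with a signal of 860 (rank 1321), which was 35.1% of the main summit in that list. In replicate 2 it lay at 7151045, 77 bp upstream, with a signal of 65.5 (rank 3626), only 3.54% of the main summit. Both positions fall within the 82 bases shown in capitals above. The pooled and optimal lists on dm6 gave the interval a single summit. The replicates therefore differed 9.93-fold in the share of the weaker summit, and they placed it 68 bp apart.

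The lists on the dm3 build gave a different account of the same interval. There the pooled and optimal lists held a main summit at 2976466 with a signal of 4283 (rank 253) and a weaker summit 227 bp farther upstream of gfzf, at 2976693, with a signal of 1529 (rank 1204). This weaker summit had 35.7% of the main signal. Replicate 1, which had a weaker summit on dm6, had none on dm3. In replicate 2 the weaker summit was present on both builds, 285 bp from its main summit, with 65.5 in each. The weaker summit beside the start was therefore seen on 1 build only in the pool and in replicate 1. Of the optimal intervals on 3R that could be matched between builds, 30 of 592 (5.07%) had another number of summits on the other build. In replicate 1 it held for 45 of 572 (7.87%) and in replicate 2 for 6 of 611 (0.982%). These matched intervals include those with a single summit. Over the whole optimal set on dm6, 599 of 4362 distinct intervals (13.7%) had 2 or more summits. The share among intervals with 2 or more summits was not counted.

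**Figure D3:**
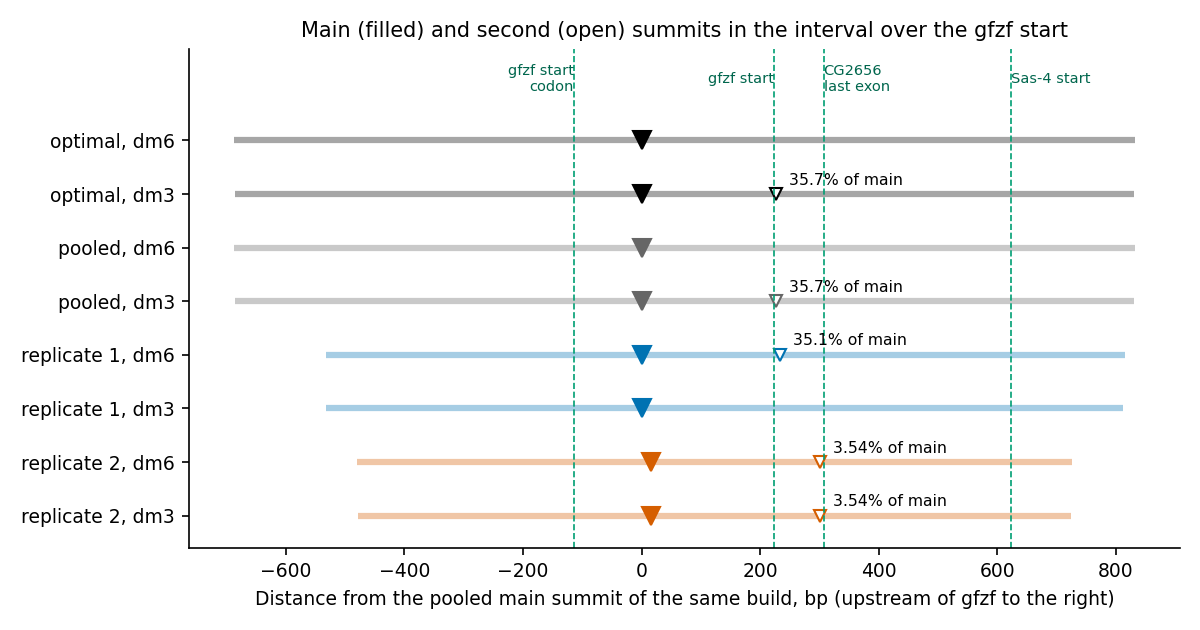
Extent of the interval over the gfzf start (bars) and its main (filled) and weaker (open) summits in each list on dm6 and dm3, against the distance in bp from the pooled main summit of the same build; upstream of gfzf is to the right. The main summit stays within 16 bp in every list, whereas the weaker summit is present in replicate 1 and absent from the pool on dm6 and the reverse on dm3. Dashed lines mark annotated positions on dm6.

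The main summit itself did not depend on the build. Positions on dm3 are those of the dm3 lists. On 3R, 632 of 650 lines (97.2%) that matched between builds in width, summit place and signal differed in position by the same 4174278 bp, and this difference located the window on dm3. The window held 4 optimal, 13 pooled, 11 replicate 1 and 12 replicate 2 lines on dm3. Of these, 3, 11, 11 and 12 had a partner on dm6. In replicate 1 the main line had a signal of 2450 and rank 303 on dm3, and in replicate 2 it had 1852 and rank 191.

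The replicates ranked gfzf less alike than most peaks. Its rank in replicate 1 was 1.59 times that in replicate 2, and the fold between the ranks was smaller in 97.3% of the 4865 linked lines, whose median was 1.09. Among the 201 optimal lines within 100 ranks of gfzf in the pool, 199 were linked in both replicates, and none had a higher ratio of replicate 1 rank to replicate 2 rank. In signal, gfzf had 1.32 times as much in replicate 1 as in replicate 2, the lowest ratio among those 199 lines, whose median was 1.57. Since scales may differ between lists, only its place among these lines can be read. Relative to peaks of like strength, gfzf was thus higher in replicate 2 and lower in replicate 1. With 2 replicates no error can be given for this difference.

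The promoter peaks most like gfzf in pooled signal were taken as the 5 next above and the 5 next below. Above it were the peaks shared by CG43954 and Lasp (4314), and those at Dg (4313), tex (4309), Hacd2 (4305) and Act42A (4296). Dg encodes dystroglycan and Act42A an actin. Below it were msn (4282), a protein kinase gene, Remo (4271), the peak that Dlc90F, a dynein light chain gene, shares with a neighbour (4243), that shared by frj and retm (4243) and that at ClC-b (4238), a chloride channel gene. Their summit offsets ran from −161 to −41 bp, so gfzf was the exception among them in the side of the start. The peak at frj and retm came closest to gfzf in replicate ranks, with rank 313 in replicate 1 and a rank ratio of 1.53. Dg followed with 282 and 212. At ClC-b the order was the other way, with 237 and 295.

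**Figure D4:**
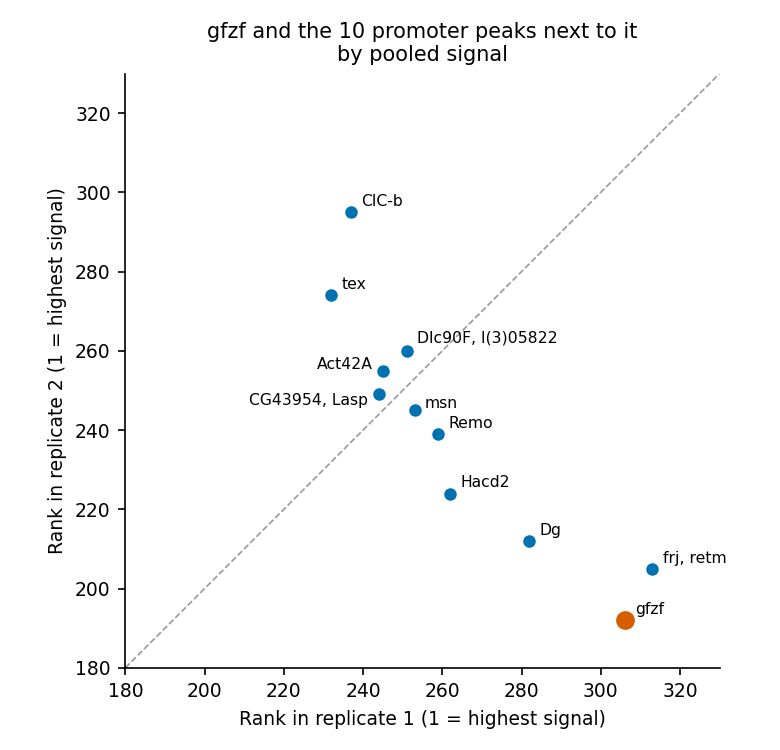
Rank in replicate 1 (horizontal axis) and in replicate 2 (vertical axis) for gfzf and the 10 promoter peaks next to it in pooled signal, where rank 1 is the highest signal and the dashed line marks equal ranks. The point for gfzf (306 and 192) lies farthest below the line in the ratio of its ranks, with frj and retm (313 in replicate 1) beside it.

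The rest of gfzf carried only lines that were weak in signal, none of them in the optimal set. In intron 1 the pool had a line with its summit at 7149839 and a signal of 37.8 (rank 8580). Replicate 1 had a summit 2 bp away with 77.1 (rank 4353), and replicate 2 had no line there. In coding exon 2 the pool had a summit at 7148722 with 18.7 (rank 19035) and replicate 2 at 7148639 with 21.3 (rank 6965), and replicate 1 had none. No weak site inside the gene was thus held by both replicates. The start of the short transcript gfzf-RD had a pooled summit 5 bp upstream with 23.5 (rank 14285). Replicate 1 had summits on either side of it, at 7147472 with 8.75 (rank 29510) and at 7147269 with 31.8 (rank 7325), and replicate 2 had none within 1 kb. For scale, the lines of the common fixed width had a median signal over the whole list of 20.2 in the pool, 14.0 in replicate 1 and 10.2 in replicate 2. The intron 1 lines were not of that width, with 360 bp in the pool and 322 bp in replicate 1, and lay above these medians. The exon 2 line of replicate 2 lay above the median of its list. At the gfzf-RD start the pooled line (23.5) and the replicate 1 line at 7147269 (31.8) also lay above the median of their lists. The pooled exon 2 line and the weaker line of replicate 1 at the gfzf-RD start lay below it. In replicate 1 the lines in intron 1 and at 7147269 had a −log10 q-value of 4.17, as did its main gfzf line. Its line at 7147472 had 0.315, and the exon 2 line of replicate 2 had 3.44. In the pool the values were 2.96 in intron 1, 0.655 in exon 2 and 1.06 at the gfzf-RD start.

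No line lay over the end of the gene where the GFP tag is joined. The stop codon is at 7146314 to 7146316, in exon 4. The nearest summit in the gene body lay 955 bp upstream of it along gfzf, in replicate 1, and 1069 bp upstream in the pool. The signal over gfzf was therefore concentrated at its 5′ end in all lists.

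The genes that share the locus differed in occupancy. The window overlapped 6 protein-coding genes, and 3 of them (gfzf, CG2656 and MAGE) had an optimal summit within 250 bp of a start, against 33% of all 13968 protein-coding genes. With 6 neighbouring genes this share is a description only. At CG2656 the optimal summit lay at 7144693, 31 bp upstream of its start, with a signal of 398 (rank 2417). Replicate 1 had 274 there (rank 2353) and replicate 2 had 129 (rank 2647), with summits within 3 bp of each other. At MAGE the optimal summit lay at 7155215, 35 bp upstream of its start, with 413 (rank 2377). Replicate 1 had 278 there (rank 2337) and replicate 2 had 135 (rank 2596), with summits 2 bp apart. In the pool the gfzf signal was 10.8 times that at CG2656 and 10.4 times that at MAGE. In replicate 1 it was 8.93 and 8.80 times, and in replicate 2 it was 14.4 and 13.7 times. Both neighbours thus had weaker peaks and, unlike gfzf, the summit just upstream of the start.

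The other 3 coding genes of the window had no optimal summit at their starts. The start of Sas-4 lay inside the gfzf interval, 209 bp from its edge, yet the main gfzf summit was 623 bp away from it. The nearest summit of any dm6 list was that of replicate 2 at 322 bp. CG14610 starts 398 bp from the CG2656 summit in the opposite direction and had no line of its own at its start. Fer1, which encodes a basic helix-loop-helix transcription factor, starts outside the window and had no relaxed pooled summit within 250 bp of its start. Across the genome, 51.6% of protein-coding genes had such a relaxed summit. The noncoding RNA asRNA:CR42738 and an annotated transposon of the HB family, which also overlap the window, had no optimal summit at their annotated starts.

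Beyond the window, the nearest protein-coding start with an optimal peak on the lower coordinate side was that of CG10068, 22941 bp from the gfzf start, with a signal of 641 (rank 2019). CG31493, nearer on that side, had none. On the other side the nearest gene with such a peak was lap, which encodes an AP180 adaptor of synaptic vesicle endocytosis. Its nearest start lies 36026 bp from the gfzf start. The strongest optimal summit at any lap start had 3871 (rank 331), and another had 133 (rank 4041). The nearer gene sas had none. Between CG10068 and lap, gfzf was the strongest promoter with a peak.

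Relaxed lines were dense around gfzf. Its window held 11 pooled lines, against a median of 2 over 8869 windows of the same length, and 91.5% of windows held fewer. Replicate 1 had 14 lines there (97.8% of windows held fewer) and replicate 2 had 12 (95.5%). The window was also rich in genes, with 5 protein-coding genes starting in it against a median of 1, and 90.2% of windows held fewer. Of the 11 pooled lines, 5 lay more than 250 bp from any coding start, and 77.0% of windows held fewer such lines. Replicate 1 had 6 such lines (82.7% of windows held fewer) and replicate 2 had 7 (89.7%). The lines of fixed width in the window had a median signal of 23.5 in the pool, against 20.2 over the list. In replicate 1 the median was 15.1, against 14.0, and in replicate 2 it was 9.60, against 10.2.

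The density did not peak at gfzf. The window lay in a run of 9 adjoining windows, 135.8 kb in all, in which the pool held from 3 to 14 lines per window, each above the genome median. This run held 81 pooled lines and the starts of 25 protein-coding genes. The other 18 of the 27 windows in view held 7 lines and the starts of 26 genes, and 14 of them held no line. The run extended over 5 windows on the lower coordinate side of gfzf and 3 on the higher. Gene starts were denser in the run than outside it, and their part in the number of lines was not tested. The labels do not say how much sequence around gfzf the transgene holds, so lines from such copies cannot be told apart from those of the locus.

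**Figure D5:**
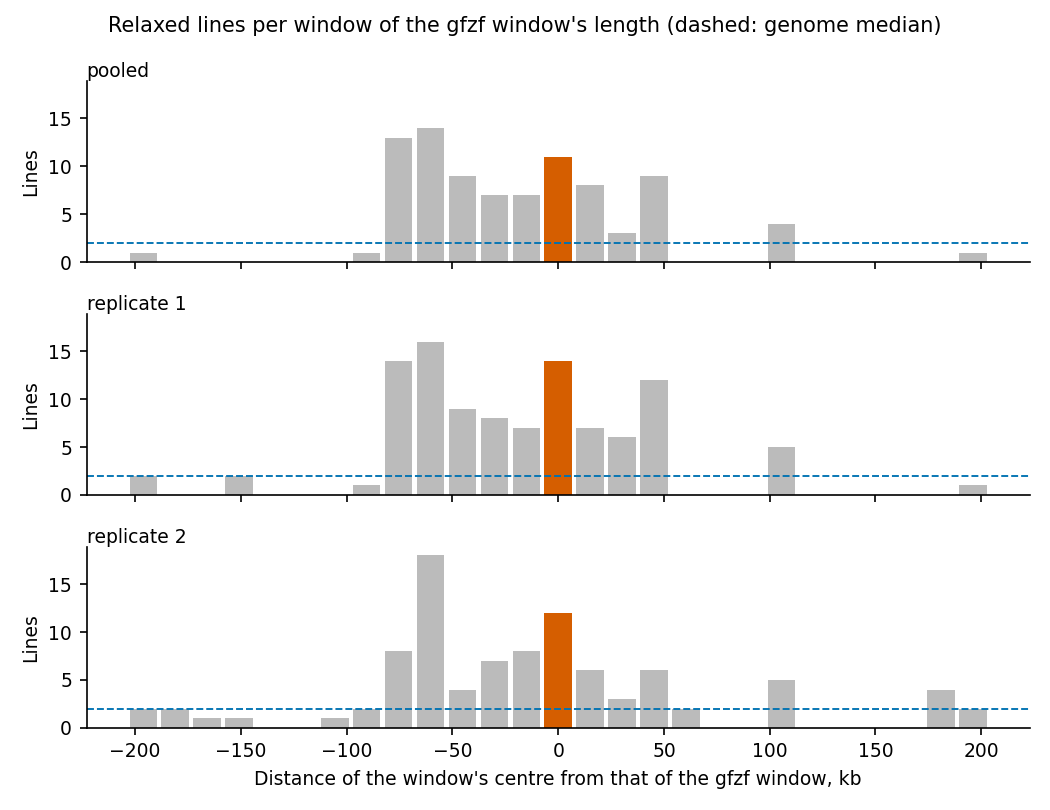
Number of relaxed lines in windows of 15089 bp along 3R in the pooled list and in each replicate, by distance in kb from the gfzf window (coloured bar). Dashed lines give the genome median of 2 lines per window, and the pooled list exceeds it in 9 adjoining windows that include gfzf, with 11 lines at gfzf and up to 14 elsewhere.

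Across the window, summits within 100 bp of each other formed 18 sites. Of these, 3 held optimal lines, 8 were present in both replicates and 7 in the pool and both replicates. Those 7 include a site in the CG2656 intron at 7144897, with 38.3 in the pool (rank 8497), 15.7 in replicate 1 and 12.8 in replicate 2. They also include an intergenic site with a pooled summit at 7142513 (22.4). Sites in Sas-4 coding sequence, with pooled summits at 7153363 (23.8) and 7154102 (26.6), are among them too. There were 3 sites found in replicate 1 alone, 3 in replicate 2 alone and none in the pool alone. The site beside the gfzf start was the only one held by both replicates and missing from the pool on dm6. Replicate lines without a pooled summit within 100 bp were uncommon at this strength, with 122 (2.44%) among the 5007 strongest of replicate 1 and 225 (4.49%) among those of replicate 2.

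The sequence around the gfzf summit held none of the elements searched. Exact matches on both strands were sought for GGTCACAC (the core of Motif 1), TATCGATA (the DNA replication-related element, DRE), CANCNCTA (Motif 7). The letters of the TATA box were searched as TATAAA. The sites of the early embryo factors were searched as GAGAG for the GAGA factor and as CAGGTA for Zelda, and the E-box was searched as CAGCTG. Within 100 bp on each side of the main summit there was none, and the same held for the weaker summit of replicate 1. Among all 5007 optimal summits, 18.5% held the Motif 1 core in an equal window, 12.4% the DRE, 17.1% Motif 7 and 14.9% the E-box. The TATA letters were in 26.2%, GAGA in 16.7% and Zelda in 3.65%. The absence says only that these letters are not in that window.

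The wider promoter of gfzf held a single match. From 250 bases before to 50 after the start, GAGA occurred once, at −124 in the CG2656 exon, and 29.7% of 13945 promoters held that motif. The same match lay 43 bp from the weaker summit of replicate 2. The promoter of CG2656 had Motif 7 at 7144670 to 7144677 on the minus strand and again just past its start, and an E-box at 7144734 to 7144739. Motif 7 occurred in 15.6% of promoters and the E-box in 17.7%. The promoter of MAGE held GAGA at −153, and within 100 bp of its summit none of the 7 motifs was found. In base composition the 201 bp around the gfzf summit had 46.8% G and C, above 87.8% of optimal summits, whose median was 38.3%. The weaker summit of replicate 1 was at that median, and that of replicate 2 had 44.3%, above 79.5% of optimal summits.

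Genes tied by earlier work to hybrid incompatibility, to Motif 1 or to FLYWCH proteins had weaker peaks than gfzf or none. Of 5 such genes, 3 had an optimal summit within 250 bp of a start, against 33% of all protein-coding genes. These were mod(mdg4), an insulator gene with FLYWCH proteins, at 372 (rank 2474), Lhr, a hybrid incompatibility gene, at 140 (rank 3916), and the gene of the heterochromatin protein HP1a at 105 (rank 4552). M1BP had only a relaxed pooled line, with 51.5 (rank 6867). Hmr, the partner of Lhr in hybrid lethality, had none in either list. Among these genes gfzf thus had the strongest peak, 11.5 times that of mod(mdg4).

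A sequence pattern of the FLYWCH finger matched the translated coding sequences of 11 genes, gfzf among them. The pattern was widened after a narrower form had missed gfzf, so its match there is by construction. It was found 2 times in the long gfzf protein and 0 times in the protein of gfzf-RD, and it may miss fingers that depart from it. The other 10 were mod(mdg4) and 9 pre-mod(mdg4) genes of the same locus, which share peaks. Of the 11 genes, 8 had an optimal summit at a start, against 33% of all protein-coding genes, but these 8 carried only 4 distinct peaks, with signals from 141 to 372 apart from gfzf. The gene gfzf thus had the strongest peak of this group as well.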

How the data were processed

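Peak lists were deposited per replicate, for the pooled reads and as the optimal set, each on dm6 and dm3. Per the file headers and names, the relaxed lists were the input of the irreproducible discovery rate filter. Column 7 holds the signal that the authors' peak caller gave, column 9 the deposited −log10 of the q-value, which was not used to rank, and column 10 the deposited summit offset. The aligner, caller, filter settings and depth were not given in any source used, so intervals for counting error could not be had. Control reads and alignments were not analysed here.

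Summits were taken as column 2 plus column 10 plus 1, and ranks by column 7 within each list. Lines were placed on the Ensembl release 115 annotation and the dm6 reference in Python 3.11.15 with numpy 2.4.6. A promoter summit lay within 250 bp of a protein-coding start, and summits within 100 bp were linked. Builds were paired by line width and summit place within 10 bp and signal within 2%. Percentiles count lower values and are descriptions. No test was made, since 1 group has no contrast.

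The genes named are gfzf, the genes of the window, the nearest coding starts beyond it with and without a peak, 5 promoter peaks on each side of gfzf by signal, 5 partner genes and genes that match a FLYWCH pattern. The 41 far downstream summits were added later. Proteins were translated from Ensembl coding sequence. The members, lists and motifs were chosen with earlier results of these data known. Alternatives changed the flank, the window, the start distance, the list and the build, and left out each replicate.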

Additional observations from a re-analysis of the deposited data

How the results depend on the processing

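Of 32 alternatives, 21 were labelled as the same, 11 as moved and none as reversed, and the causes were not tested. Counts within 1.5 times the main count were labelled the same. Those labelled moved include the summit distance of 208 bp and the window percentiles of 97.8 and 95.5, which are values of single replicates. With a flank of 2 kb the window held 6 pooled, 8 replicate 1 and 7 replicate 2 lines, the fewer because it was shorter. The rank of the main line ranged from 192 to 306 when each replicate was left out. The distance of its summit from the start ranged from 208 to 224 bp in the same way. Its percentile among promoter offsets was 99.0 with starts within 500 bp, and ranged from 99.1 to 99.9 when each replicate was left out. The percentile of the window for relaxed lines was 88.4 in windows of 10 kb and 89.4 in windows of 50 kb, and ranged from 95.5 to 97.8 in the lists of the single replicates. A narrower FLYWCH pattern, added after the data were seen, matched 5 genes in place of 11. No paired analysis was possible because there was 1 group and no contrast. Depth is unknown, so the weak lines carry no counting error.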

Other observations

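The bases upstream of gfzf and MAGE shared a run of 11 letters on the same strand, TGGCAACGCCA, found by comparing the printed sequences after the data were seen. It lies 3 bp upstream of the gfzf start, at chr3R:7150971-7150981, and 6 bp upstream of the MAGE start, at chr3R:7155186-7155196, both on the minus strand of dm6. Among 13945 promoters, 44 (0.316%) held it on either strand, and 32 of these 44 (72.7%) had an optimal summit within 250 bp of a start, against 33% of all protein-coding genes. Among the 5007 optimal summits, 27 (0.539%) held it within 100 bp. The longest runs shared by CG2656 with either of them had 7 and 8 letters. Both the 44 and the 32 include gfzf and MAGE, the pair in which the run was found, so this share is not independent of that choice. A link of the run with peaks was not tested. A run seen first in a chosen pair of bound promoters is a description of that pair.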
